A study of Rattus norvegicus with 8 samples.

Results

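The genes described here are the receptors through which the rat ovary reads steroid hormones: the oestrogen receptors Esr1 and Esr2, the progesterone receptor Pgr, the glucocorticoid receptor Nr3c1, the mineralocorticoid receptor Nr3c2, and the membrane-bound progesterone receptor components Pgrmc1 and Pgrmc2. The array probes that carry exactly these gene names were taken, which gave 7 genes and 13 probes of the 26204 gene names and 30350 probes measured. Each member had at least 1 probe that could be tested, and 4 of the genes had more than 1. The androgen receptor was not among the genes chosen.

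The nuclear receptors of this set are proteins that bind a steroid, move to or stay on DNA and change the transcription of nearby genes. Each has a zinc-finger domain that binds DNA and a domain at its carboxyl end that binds the hormone. Within the ovary, oestradiol made by granulosa cells acts back on follicle growth mainly through Esr2, while Esr1 is known chiefly from theca, interstitial and surface cells. Pgr is switched on in granulosa cells of preovulatory follicles by the luteinising hormone surge and is needed for follicle rupture. Pgrmc1 and Pgrmc2 are small haem-binding proteins of internal membranes, unrelated in sequence to the nuclear receptors, and have been tied to progesterone action in granulosa cells and to sterol metabolism.

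Ovary RNA was measured on 1-colour Agilent rat arrays, 4 labelled PMSG and 4 labelled control. PMSG, pregnant mare serum gonadotropin, acts mainly like follicle-stimulating hormone. Female rats aged 26 days received 50 IU under the skin in 0.2 ml of an albumin and phosphate buffer, and controls received only the buffer; titles name the control arrays as untreated, and the treatment field names the vehicle. The ovaries came out 48 h later, at 28 days. No strain is named, and the labels do not say whether an array holds RNA of 1 rat or a pool, so the p-values below measure the spread between these arrays only, and 4 arrays per label limit the precision. All arrays lay on 1 slide and were scanned on 1 date.

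The groups were taken from the labels, and at least 4 of 8 check genes of the gonadotropin response went against the direction generally known for PMSG. Lower on the arrays labelled PMSG were Lhcgr, the luteinising hormone receptor, by -1.93 on the log2 scale, Cyp11a1, the enzyme that opens steroid synthesis, by -3.36, and Star, which carries cholesterol into mitochondria, by -2.75 (limma, adjusted p = 0.00114, 0.000232 and 0.00541). Amh, a product of small growing follicles, was higher by 3.03 (adjusted p = 0.000261). Of the other check genes, the theca hormone Insl3 was higher by 2.60 (adjusted p = 0.000347), the activin subunit gene Inhba was lower by -1.32 (adjusted p = 0.0237), and Fshr and Inha differed by 0.34 and -0.40 without passing (adjusted p = 0.48 and 0.0921). Every direction below therefore compares arrays labelled PMSG with arrays labelled control and says no more about the hormone than the labels do. Markers of other cells also moved with the label: 8 of 8 oocyte markers passed the threshold as higher on the PMSG-labelled arrays (log2 of their summed level 3.56 to 4.66, against 1.73 to 2.59 on the control-labelled arrays), as did 8 of 10 markers of oviduct or surface epithelium (5.18 to 5.64 against 4.32 to 4.73), with Wt1 of that list also known from granulosa cells. Of 7 granulosa cell markers 2 were higher and 1 lower, and of 5 theca or interstitial cell markers 3 were higher (Insl3, Ptch1 and Gli1) and 1 lower. Of the 7 leukocyte markers 4 were higher (57.1% called), and of 8 fibroblast or smooth muscle markers 3 were higher (37.5%). Of 7 endothelial markers 4 were lower and 1 was higher (71.4%). Of 7 adipocyte markers 1 was higher (14.3%), and their summed level varied widely on the control-labelled arrays (2.67 to 5.58). Among all genes 34.5% were called, so the granulosa (42.9%) and fibroblast lists lay near that share. In whole ovary, fewer cells of a type and less RNA per cell cannot be told apart, and the part of these markers in the receptor values was not tested.

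Of the 7 receptor genes, 5 differed between the labels at an adjusted p under 0.05 (limma on all 25303 probes well above background on at least 4 of the 8 arrays, with Benjamini-Hochberg adjustment), against a background of 34.5% of all genes tested by their brightest probe. Esr1, Esr2, Nr3c1 and Nr3c2 were higher on the PMSG-labelled arrays (18% of all genes were called higher), Pgrmc1 was lower (16.5% of all genes), and Pgr and Pgrmc2 did not pass. The values of both labels did not overlap for 6 of the 7 genes, against 37% of all genes. By single probes 8 of 13 passed, 6 higher and 2 lower, against 34.2% of all probes. Counting a gene by the mean of all its tested probes also gave 5. The median difference over the 7 genes was 0.82 log2 units, beside 0.12 over all genes. Without the PMSG-labelled array 4 all 7 passed, and the count over all probes rose from 8658 to 11382.

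**Figure D1:**
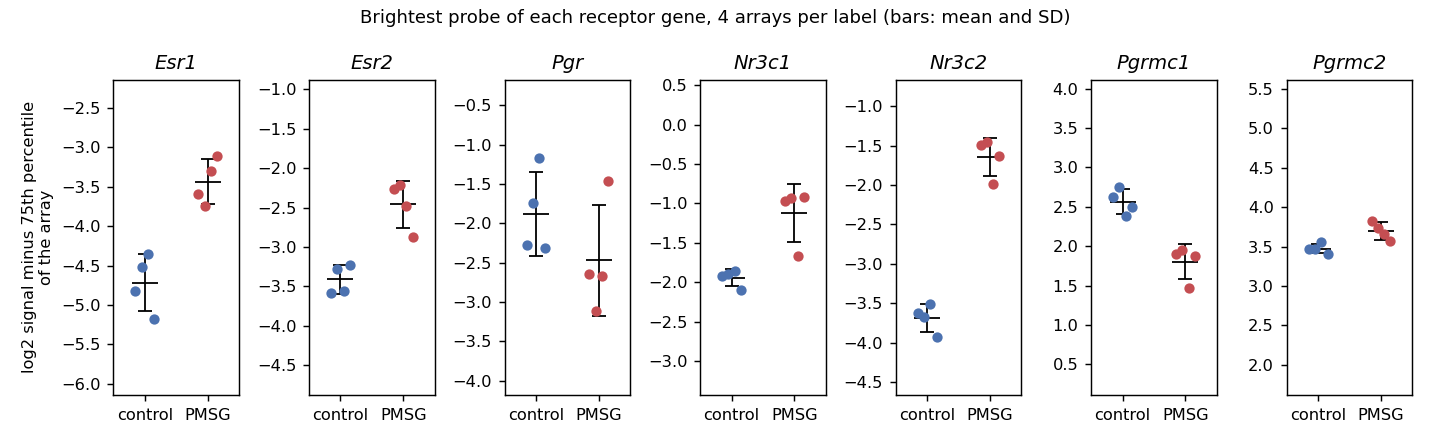
Level of each of the 7 receptor genes by its brightest probe, as log2 signal minus the 75th percentile of the array (vertical axis, with the same height of scale in every panel), on the 4 control-labelled arrays (blue) and the 4 PMSG-labelled arrays (red), arrays 1 to 4 from left to right; bars give the mean and SD. Nr3c2 has the widest gap, 2.05 log2 units, and Pgr is the gene whose groups overlap.

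Esr1 encodes the oestrogen receptor alpha. Its probe, on build rn4 at chr1:35660062-35660121 on the plus strand, starts at base 1171 of the RefSeq transcript, in the coding sequence for the beginning of the hormone-binding domain. The probe is shown because the reading of Esr1 rests on it alone, printed 5′ to 3′:
Esr1, base 1171: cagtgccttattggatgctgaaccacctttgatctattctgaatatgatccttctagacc
Given as log2 signal relative to the 75th percentile of the array, and here as elsewhere in the order of arrays 1 to 4, the levels were -4.82, -4.52, -4.35 and -5.18 under the control label and -3.59, -3.75, -3.30 and -3.10 under the PMSG label. The lowest PMSG-labelled array was above the highest control-labelled one. The difference was 1.28 ± 0.21 log2 units (SE, n = 4 per label; 2.43-fold; limma, adjusted p = 0.0025). This probe was printed on 10 spots per array, which differed within an array by an SD of 0.09 to 0.16, less than the spread between arrays of one label (SD 0.36 and 0.29). It was dim, with unscaled signals of 30.5 to 126, yet well above background on all 8 arrays. With normexp background correction, which adds an offset of 50 and so shrinks differences of dim probes, it was 0.70 (adjusted p = 0.00206).

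Esr2 encodes oestrogen receptor beta, the form known from granulosa cells, and 3 probes read it on the minus strand of chromosome 6. The most upstream, at chr6:98691846-98691905, covers the end of the coding sequence. It is shown because its last bases are the stop codon, set in capitals, so that both other probes, which begin 467 and 661 bases further on, lie in the 3′ untranslated region:
Esr2, base 1814: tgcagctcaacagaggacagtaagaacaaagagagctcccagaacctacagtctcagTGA
At this coding probe the levels were -4.58, -4.42, -4.91 and -4.65 on the control-labelled arrays and -3.32, -3.15, -3.30 and -3.79 on the PMSG-labelled ones. The groups did not overlap, and the difference was 1.25 ± 0.17 (SE, n = 4 per label; 2.37-fold; limma, adjusted p = 0.000928), or 0.67 with normexp (adjusted p = 0.00138). The brightest probe, starting at base 2281 (chr6:98691379-98691438), read -3.58, -3.27, -3.56 and -3.23 against -2.26, -2.22, -2.48 and -2.88. It differed by 0.95 ± 0.17 (1.93-fold; adjusted p = 0.00356), again without overlap. The third probe, at base 2475 (chr6:98691185-98691244), gave 0.58 ± 0.19 (adjusted p = 0.043), and lost its call under 10 of 19 other ways of processing.

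The probes of Esr2 differed in size, 1.25, 0.95 and 0.58 at those starting at bases 1814, 2281 and 2475, and their order depended on the background correction: with normexp they gave 0.67, 0.71 and 0.36. With the processed signals, the array-by-array gap between the outer probes changed with the label by -0.66 (exact two-sided permutation test over 8 arrays, p = 0.0286, adjusted p = 0.0327 over the 8 probe pairs examined in 4 genes), that between the last pair by -0.37 (adjusted p = 0.0327), and that between the first pair by -0.30 (adjusted p = 0.0571). These probe comparisons were chosen after the values had been seen, and 0.0286 is the smallest p that 4 arrays against 4 can give. The distances between these probes are the same in the genome as in the transcript, so no intron separates them.

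Esr1 and Esr2 were compared with each other as a per-array difference, in which the scaling of the array cancels. Esr2 minus Esr1 was 1.30 ± 0.48 on the control-labelled arrays and 0.97 ± 0.58 on the PMSG-labelled arrays (SD, n = 4 each). The groups overlapped, and the change of -0.33 did not exceed the spread (exact two-sided permutation test, p = 0.486, adjusted over 3 pairs 0.486). Across the alternatives run it lay between -0.52 and 0.00 (the latter with normexp), so an unequal change of both oestrogen receptors was not detectable with these arrays.

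Pgr encodes the nuclear progesterone receptor and had 1 probe, starting at base 2869 of its transcript (chr8:5845716-5845775, plus strand). Levels were -2.27, -1.75, -1.18 and -2.31 on the control-labelled arrays and -2.64, -3.12, -2.67 and -1.46 on the PMSG-labelled ones. The first 3 PMSG-labelled arrays lay under every control-labelled array, while the fourth was higher than all but 1 of them. The difference of -0.60 ± 0.39 (SE; 95% interval -1.49 to 0.30) did not pass the threshold (limma, adjusted p = 0.261). Without the PMSG-labelled array 4 it was -0.93 with an adjusted p of 0.0373, and over the leave-one-out fits the adjusted p ran from 0.0373 to 0.497. With SDs of 0.53 and 0.71 Pgr was also the most variable receptor within a label among the brightest probes of the 7 genes.

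Nr3c1 and Nr3c2 encode the receptors for glucocorticoids and mineralocorticoids, close relatives that both bind corticosterone, the main glucocorticoid of the rat. Each had a probe at its stop codon and another far downstream in the 3′ untranslated region. The coding-end probes are shown because they lie at matching places of both proteins, upstream of the probes that carry the results; capitals mark the stop codon:
Nr3c1, base 2362: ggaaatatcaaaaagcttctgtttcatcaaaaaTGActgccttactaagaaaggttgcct
Nr3c2, base 3359: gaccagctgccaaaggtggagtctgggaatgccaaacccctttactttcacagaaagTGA
Aligned at the stop codon, these probes share 36 bases, or 12 codons with the stop included, and 23 of the bases (63.9%) were identical. The longest run of bases shared by probes of different receptor genes was 10, between Nr3c2 and Pgrmc1.

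Nr3c2 had the largest difference of the set. At its brightest probe, starting at base 5566 (chr19:32528010-32528068, minus strand), the levels were -3.63, -3.68, -3.52 and -3.93 on the control-labelled arrays and -1.49, -1.46, -1.99 and -1.63 on the PMSG-labelled arrays. Both groups were tight and far apart. The difference was 2.05 ± 0.15 (SE, n = 4 per label; 4.13-fold; limma, adjusted p = 8.89e-05), and 1.81% of all tested probes had a larger absolute difference. The coding-end probe (chr19:32530204-32530263) was near background, well above it on 1 control-labelled and 3 PMSG-labelled arrays, with signals of 4.72 to 17.6. It gave 0.59 ± 0.52 (adjusted p = 0.394), 0.20 with normexp, and 1.098 without the PMSG-labelled array 4 (adjusted p = 0.0259).

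Nr3c1 differed by less. Its brightest probe, starting at base 6156 (chr18:32371607-32371666, minus strand), read -1.922, -1.898, -1.860 and -2.102 on the control-labelled arrays and -0.97, -0.93, -1.67 and -0.92 on the PMSG-labelled ones. Every PMSG-labelled array was above every control-labelled array, with array 3 close to the controls. The difference was 0.82 ± 0.18 (SE; 1.77-fold; limma, adjusted p = 0.00903), and the call was lost when arrays were centred on their medians (0.65, adjusted p = 0.0559). The coding-end probe (chr18:32375401-32375460) read -5.23, -5.12, -4.83 and -5.23 against -5.17, -4.91, -4.99 and -5.45, with full overlap and a difference of -0.03 ± 0.15 (95% interval -0.38 to 0.32; adjusted p = 0.903). This coding-end probe was dim, with unscaled signals of 24.2 to 35.3, which limits its precision. It was well above background on all 4 arrays of each label. The probes lie 3794 bases apart both in the transcript and in the genome. The downstream probe of Nr3c1 rose relative to the coding-end probe by 0.85 (exact two-sided permutation test, adjusted p = 0.0327 over the 8 probe pairs), and by 0.67 to 1.08 when each array was left out in turn. For Nr3c2 the gap between its probes changed by 1.46 (same test, adjusted p = 0.0327), and by 0.94 to 1.78 when each array was left out. Its coding-end probe was too near background for this change to be read. Labelling started from oligo-dT, at the 3′ end of transcripts; the part of this in the gap between probes was not tested.

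**Figure D2:**
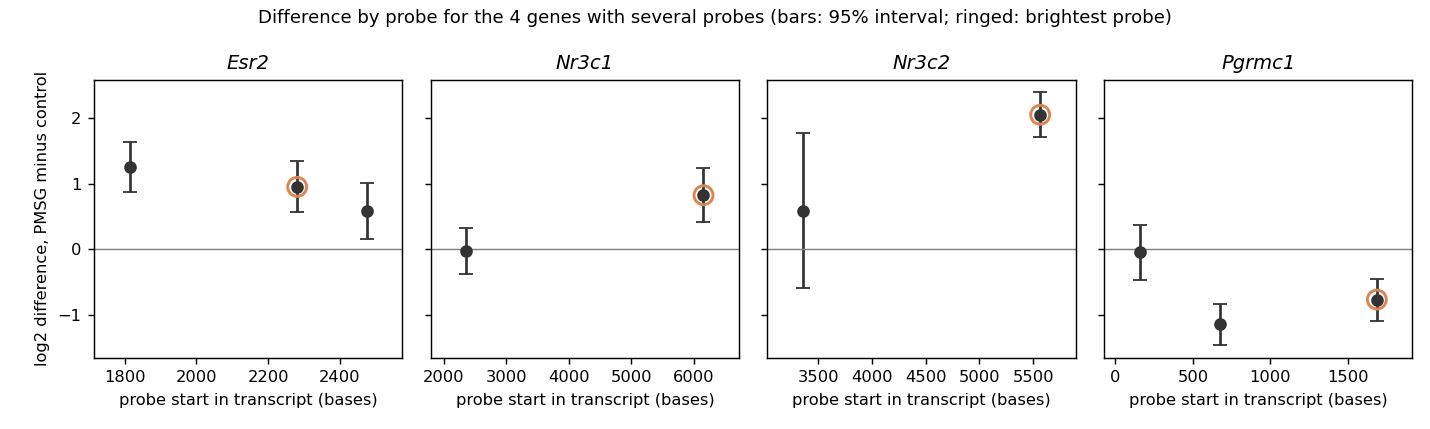
Log2 difference between PMSG-labelled and control-labelled arrays (vertical axis) by the base at which each probe starts in the transcript (horizontal axis) for the 4 receptor genes with more than 1 probe; bars are 95% intervals and rings mark the brightest probe. Intervals include 0 for the probes of Nr3c1 at base 2362, of Nr3c2 at base 3359 and of Pgrmc1 at base 156. Those of the other probes shown do not. The Nr3c2 probe at base 3359 was near background.

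Compared within arrays at their brightest probes, Nr3c2 moved more than Nr3c1. Nr3c2 minus Nr3c1 at the brightest probes was -1.74 ± 0.08 on the control-labelled and -0.52 ± 0.16 on the PMSG-labelled arrays (SD, n = 4 each), with no overlap. This change of 1.22 gave p = 0.0286 in an exact two-sided permutation test (adjusted over 3 pairs, 0.0429), and with normexp it was 0.79 (adjusted p = 0.0429). The absolute gap between probes depends on the probes. Its change between labels compares these brightest probes and need not hold for other probes of the genes. Between the probes of Nr3c1 alone the change was 0.85.

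Pgrmc1 and Pgrmc2 went apart at their brightest probes. Pgrmc1 is read by 3 probes on the minus strand of chromosome X. The brightest, starting at base 1689 (the files place 38 of its 60 bases, at chrX:8265522-8265559), had levels of 2.63, 2.76, 2.39 and 2.50 on the control-labelled arrays and 1.903, 1.956, 1.472 and 1.879 on the PMSG-labelled ones. All PMSG-labelled arrays were under all control-labelled ones, and the difference was -0.77 ± 0.14 (SE; 1.7-fold lower; limma, adjusted p = 0.00392). The probe at base 677 (chrX:8266668-8266727) read 0.21, 0.26, -0.11 and 0.22 against -1.002, -0.705, -1.125 and -1.163. It differed by -1.14 ± 0.14 (2.21-fold lower; adjusted p = 0.000605).

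The remaining Pgrmc1 probe did not follow. It starts at base 156 (chrX:8273468-8273527), in the coding sequence near the 5′ end that includes the membrane-spanning segment, and is shown because it reads a stretch of the gene on which the change of the other probes was not seen:
Pgrmc1, base 156: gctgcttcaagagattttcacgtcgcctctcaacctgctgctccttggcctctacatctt
Its levels were -0.05, -0.26, -0.22 and -0.20 on the control-labelled arrays and -0.10, -0.36, 0.22 and -0.67 on the PMSG-labelled arrays. The groups overlapped, with a difference of -0.05 ± 0.18 (95% interval -0.47 to 0.38; limma, adjusted p = 0.857). This probe and the one at base 677 are 521 bases apart in the transcript and 6800 in the genome, so intron sequence lies between them. Relative to the upstream probe, the probe at base 677 fell by 1.097 and that at base 1689 fell by 0.72 (exact two-sided permutation tests, adjusted p = 0.0327 each over the 8 probe pairs).

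Pgrmc2, the close relative of Pgrmc1, had 1 probe, starting at base 1769 (chr2:128025077-128025136, minus strand). The levels were 3.46, 3.47, 3.55 and 3.41 on the control-labelled arrays and 3.83, 3.73, 3.66 and 3.57 on the PMSG-labelled arrays. The lowest PMSG-labelled array lay just above the highest control-labelled one. The difference of 0.23 ± 0.09 (SE; 95% interval 0.01 to 0.44; 1.17-fold) did not pass the threshold (limma, adjusted p = 0.0969). It passed with quantile normalization (0.38, adjusted p = 0.0104), with array weights (0.27, adjusted p = 0.0344) and without the PMSG-labelled array 4 (0.27, adjusted p = 0.0443). Pgrmc2 minus Pgrmc1 was 0.90 ± 0.19 on the control-labelled and 1.895 ± 0.218 on the PMSG-labelled arrays (SD, n = 4 each). That change of 0.99, with no overlap, gave p = 0.0286 in an exact two-sided permutation test (adjusted over 3 pairs, 0.0429). It rests on the brightest Pgrmc1 probe. The pair was not tested with the Pgrmc1 probe at base 156, which differed by -0.05.

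**Figure D3:**
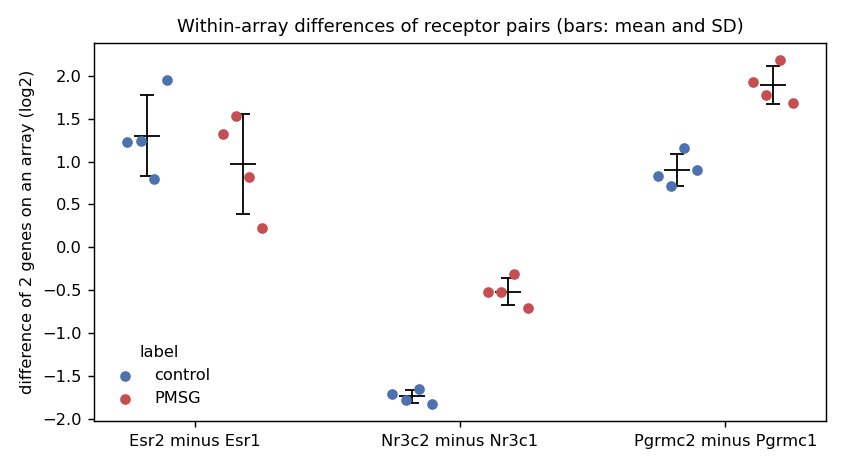
Within-array differences between the brightest probes of 3 pairs of related receptors (vertical axis, log2 units) on control-labelled (blue) and PMSG-labelled (red) arrays, with mean and SD. The groups overlap for Esr2 minus Esr1 and lie apart for Nr3c2 minus Nr3c1 and Pgrmc2 minus Pgrmc1; the height of a pair depends on its probes and compares nothing between pairs.

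Among the other membrane progesterone receptors and the relatives of Pgrmc1, 4 of 8 tested genes (50%) passed the threshold, 2 in each direction, with a median difference of 0.20. For this and the lists that follow, the share of all genes called is 34.5% and their median difference 0.12; lists near that share do not stand out. Tmem97, the sigma-2 receptor that forms a complex with Pgrmc1 and the low-density lipoprotein receptor, fell by 1.21 ± 0.12 (SE; limma, adjusted p = 0.000254), from 1.03 ± 0.03 to -0.18 ± 0.20 (SD, n = 4). Serbp1, an RNA-binding partner of Pgrmc1, fell by 0.42 (adjusted p = 0.0087). The membrane progestin receptor genes Paqr6 and Paqr5 were higher by 0.77 (adjusted p = 0.00106) and 0.72 (adjusted p = 0.024), the second losing its call under 7 of 17 alternatives. Paqr7 and Paqr8 differed by 0.63 and 0.09 and did not pass (adjusted p = 0.163 and 0.72).

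Of 8 other receptors linked to steroids and sterols, 1 was higher and 1 lower (25% called), with a median of 0.43. That median lies between Esrrb (0.41) and Gper1 (0.45), both near background and not called. Esrrb was well above background on 2 control-labelled and 4 PMSG-labelled arrays, and Gper1 on 3 of each label. Esrra, an orphan relative of the oestrogen receptors that controls mitochondrial genes, fell by 0.72 (adjusted p = 0.000734). Nr1h3, the oxysterol receptor LXR alpha, was higher by 0.64 (adjusted p = 0.0451) and lost the call under 9 of 17 alternatives. The vitamin D receptor gene Vdr differed by 0.63 without passing (adjusted p = 0.255), and by 0.28 with normexp.

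Coregulators are the proteins that bound receptors recruit. Of 12 coactivators, 3 were higher and 1 lower (33.3% called), with a median of 0.13. Ddx17, an RNA helicase, was higher by 0.67 (adjusted p = 0.00314), Ncoa1, the first of the steroid receptor coactivators, by 0.55 (adjusted p = 0.00709) and the acetyltransferase Ep300 by 0.38 (adjusted p = 0.0267). Ncoa4, which also delivers ferritin to lysosomes, fell by 0.76 (adjusted p = 0.0061), and Crebbp differed by 0.66 without passing (adjusted p = 0.0916). Of 10 corepressors, 2 were higher and 2 lower (40% called), with a median of -0.16. Nr0b1, the orphan receptor DAX1 that represses steroidogenic genes, was higher by 1.64 ± 0.17 (adjusted p = 0.000363), from -3.29 ± 0.25 to -1.65 ± 0.26. The prohibitin gene Phb differed by -0.38 without passing (adjusted p = 0.0763).

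Of 14 tested chaperones that hold steroid receptors ready for hormone, 4 passed the threshold as lower (28.6%, under the share of all genes called), with a list median of -0.18. Fkbp5, an immunophilin of the Hsp90 complex and a classic target of glucocorticoid and progesterone receptors, fell by 1.75 ± 0.10 (SE; limma, adjusted p = 3.31e-05). It read 3.42, 3.24, 3.35 and 3.44 on the control-labelled arrays and 1.73, 1.65, 1.56 and 1.49 on the PMSG-labelled ones, far from overlap. The cochaperones Stip1, Ppp5c and Dnaja1 fell by 0.69, 0.52 and 0.50 (adjusted p = 0.00173, 0.00597 and 0.023). The Hsp90 genes Hsp90aa1 and Hsp90ab1 differed by -0.25 and -0.16 at their brightest probes and did not pass (adjusted p = 0.0846 and 0.389). Their other probes read -0.36 to -0.23 for Hsp90aa1 and -0.54 to -0.32 for Hsp90ab1.

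Of 15 tested genes known to respond to glucocorticoids, 8 were lower (Fkbp5 among them, which is also in the chaperone list) and 1 was higher (60% called), with a median of -0.45, while their receptor gene Nr3c1 was higher at its brightest probe. The metallothionein genes Mt1a and Mt2A fell by 2.42 and 2.26 (adjusted p = 3.74e-05 and 2.68e-05) and are near-identical in sequence, so their probes may share signal. Another probe matched to Mt2A read -2.418. It was not the Mt1a probe, which was brighter than the brightest probe matched to Mt2A. Their means were 6.58 against 5.78 on the control-labelled arrays and 4.16 against 3.52 on the PMSG-labelled ones. If the probes share signal, the entries are not separate counts in this list. Ddit4, an inhibitor of mTOR, fell by 2.03 (adjusted p = 0.000934), Dusp1, a phosphatase of MAP kinases, by 1.86 (adjusted p = 0.00044) and the kinase gene Sgk1 by 0.98 (adjusted p = 0.00126). Tsc22d3, also called GILZ, was the gene of this list that was higher, by 0.90 (adjusted p = 0.00189). Most of these genes also respond to gonadotropins, cAMP or stress, and the list is no measure of receptor activity.

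Among 9 tested genes that ovarian Pgr is known to control, 4 passed the threshold as lower (44.4%), with a median of -0.75. Rgcc, a cell cycle regulator, fell by 2.49 ± 0.15 (adjusted p = 4.73e-05), Adcyap1, the peptide PACAP, by 2.22 ± 0.37 (adjusted p = 0.00247; -0.99 with normexp) and the protease gene Adamts1 fell by 1.31 ± 0.25 (adjusted p = 0.00474). The chemokine receptor gene Cxcr4 fell by 0.75 (adjusted p = 0.000945). Pgr itself did not pass the threshold, and this list is no measure of its activity. Of 12 oestrogen-responsive genes, 2 were lower and 1 higher (25% called), with a median of -0.02. Ctsd, a lysosomal protease, and Ccnd1, cyclin D1, fell by 0.74 and 0.70 (adjusted p = 0.00182 and 0.01), Igf1 was higher by 0.43 (adjusted p = 0.0142), and Tff3 differed by 0.75 without passing (adjusted p = 0.227).

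Of 14 tested enzymes that set how much steroid reaches a receptor, 6 passed the threshold as lower (42.9%), with a median of -0.30. Hsd11b1, which regenerates active glucocorticoid inside cells, fell by 2.67 ± 0.12 (SE; limma, adjusted p = 1.69e-05). Its levels were 1.71, 1.85, 1.48 and 1.84 on the control-labelled arrays and -1.01, -0.81, -1.08 and -0.89 on the PMSG-labelled arrays. H6pd, which supplies the cofactor of that enzyme, fell by 1.04 (adjusted p = 0.000586), though a second probe of it read -0.07. Hsd11b2, which inactivates glucocorticoid and so guards Nr3c2 from it in mineralocorticoid target cells, fell by 1.58 ± 0.42 (adjusted p = 0.0203). Hsd17b7, which reduces oestrone and also serves cholesterol synthesis, fell by 3.77 ± 0.17 (adjusted p = 1.69e-05). Akr1c18, which inactivates progesterone and is read by probes named Akr1c3 on this array, had 1.58 ± 0.40 on the control-labelled arrays and was well above background on 1 of 4 PMSG-labelled arrays; which AKR1C family member these probes read is uncertain.

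**Figure D4:**
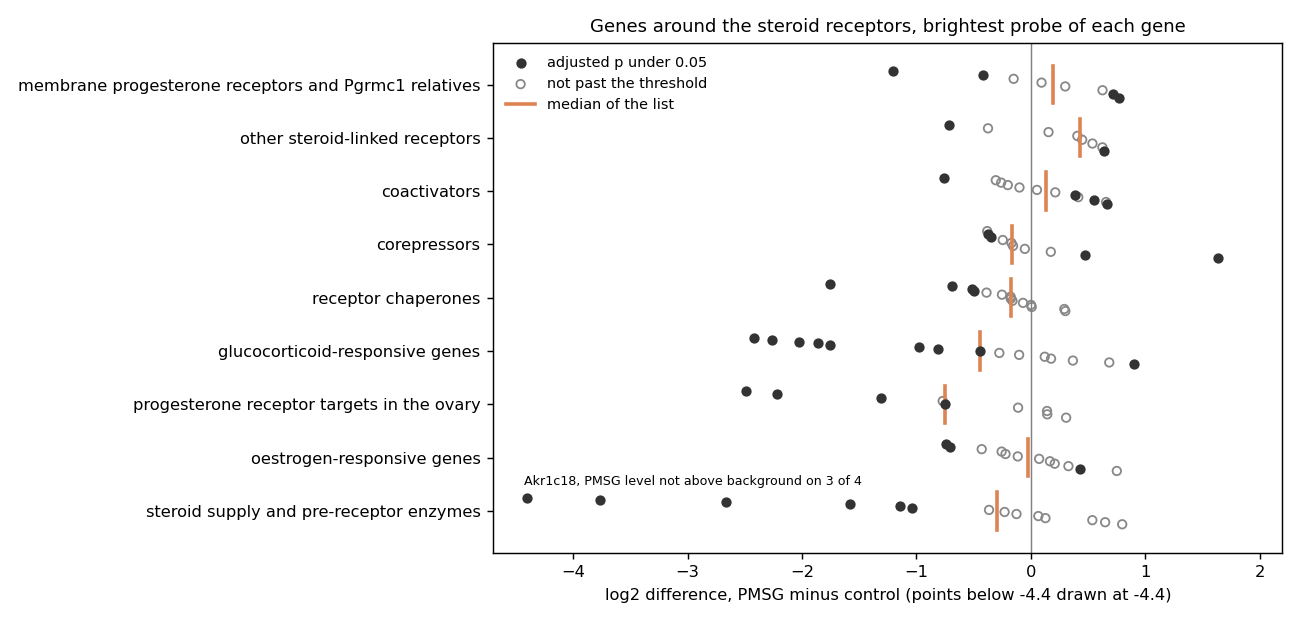
Log2 difference between PMSG-labelled and control-labelled arrays (horizontal axis) of each tested gene in 9 lists of genes around the receptors (rows), by its brightest probe; filled points passed an adjusted p under 0.05, open points did not, and orange bars are list medians. Most filled points of the glucocorticoid-responsive, progesterone receptor target and steroid enzyme rows lie left of 0, with list medians of -0.45, -0.75 and -0.30; a point beyond the axis, Akr1c18, is drawn at its edge.

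The genes whose levels followed each receptor most closely over the 8 arrays were taken from 14068 genes by Pearson r. Since most receptors differ between labels, the r over 8 arrays is carried in part by the label, and the r of the deviations from the label means is given with it; both describe these arrays only. For Esr1 they were Mustn1 (r 0.995, deviations 0.969), Krtcap3 (0.992, 0.958) and Tnnc1 (0.990, 0.940). Dscaml1 (0.996, 0.986), Fam78a (0.993, 0.980) and Paf1 (0.988, 0.954) followed Esr2. Nr3c1 was followed by Gstm6 (0.993, 0.977), Phf1 (0.993, 0.976) and Stk3 (0.991, 0.963), and Nr3c2 by Pik3ip1 (0.997, 0.908), RGD1307155 (0.997, 0.908), now named Mettl26, and Bex1 (0.995, 0.922). Closest to Pgr, with no label difference called for any of the genes, were Prrx1 (0.975, 0.970), Ampd3 (0.973, 0.966) and Npm3 (0.968, 0.959). For Pgrmc1 the list was Wbp4 (0.994, 0.967), Copb2 (0.987, 0.915) and Hnrnpl (0.985, 0.915), and for Pgrmc2 it was Nudt3 (0.982, 0.944), Pcsk6 (0.981, 0.951) and Sfxn2 (0.973, 0.915). Of these 21 genes, none was shared by any pair of receptors. With only 3 genes taken per receptor, this does not show that the receptors had separate patterns. Among the receptors themselves r ran from -0.875 for Esr1 with Pgrmc1 to 0.934 for Nr3c1 with Nr3c2, and was weakest for Esr1 with Pgr (-0.136). These values too are carried in part by the label, and the r of deviations was not computed for them.

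The promoter windows of the receptors were searched for words their own proteins bind, and also for the cAMP response element, the E-box and the GC box. Both strands were searched, in RefSeq sequence of the GRCr8 assembly from 250 bases before to 50 bases after the start. Windows were given for 6 of the 7 genes, with 2 for Nr3c1 and none for Nr3c2. The full oestrogen response element, GGTCA and TGACC 3 bases apart, was found in 0.0269% of all 33469 windows and in 0 of the 7 receptor windows. Its single arm GGTCA, present in 40.5% of all windows, was found in that of Esr2, at -211 and -49 from the start, the nearer one overlapping an E-box CACGTG (6.42% of all windows), which was also in the window of Pgrmc2. The glucocorticoid and progesterone response element, AGAACA and TGTTCT 3 bases apart (0.0149%), its single arm TGTTCT (20.7%) and the cAMP response element TGACGTCA (1.83%) were found in none of the 7. The GC box GGGCGG was present in 33.1% of all windows and in 5 of the 7, those of Pgrmc1, Pgrmc2, Pgr and both of Nr3c1. A word in a window is a description of the letters there and not a bound site.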

How the data were processed

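The deposited scanner files give 1-colour spot intensity from Agilent Feature Extraction 11.5.1.1, per the file headers, for 58717 spots (controls left out) that carry 30367 different 60-base probes, with positions on build rn4. A value table on the log2 scale, deposited beside them, matched the log2 intensity minus each array's 75th percentile (r of 0.99837 to 0.99956 with its own array, at most 0.99105 with another); it was used as an alternative, with columns not used numbering 0. The 75th percentile of the signal was 1002 to 1103 on control-labelled and 768.9 to 1082 on PMSG-labelled arrays, and 80.77% to 84.55% of probes were well above background. No spot was saturated. Outlier spots were left out, log2 processed signals of a probe's spots averaged, 17 probes without a usable spot on some array dropped, and each array's 75th percentile subtracted. Probes well above background in at least 0.5 of their spots on at least 4 arrays were tested with limma 3.58.1 in R 4.3.3 (lmFit, eBayes, no covariates; Benjamini-Hochberg over 25303 probes; threshold 0.05). A gene is read by its brightest tested probe. The procedure was tested on simulated data.

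The receptors, the gene lists and the tests were chosen with earlier results of these data known. Named are all receptor probes, the 3 genes with the largest absolute difference of each list (1 of them is not reported here), the 3 genes with the highest r to each receptor, and check genes of gonadotropin response. The genes named beyond these (Serbp1, Paqr7, Paqr8, Esrrb, Gper1, Ncoa1, Ep300, Dnaja1, the Hsp90 genes, Dusp1, Sgk1, Tsc22d3, Cxcr4, Igf1, H6pd, Hsd11b2, Ptch1, Gli1 and Wt1) were chosen after their values were seen. List genes without a matching probe were not analysed here. Gene names are those of the array; 21105 of 30350 probes had a symbol in the RefSeq table of GRCr8. Alternatives were normexp with offset 50, other scalings and filters, the deposited values, array weights, blocks by replicate number and slide row, and leaving out each array.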

Additional observations from a re-analysis of the deposited data

Results flagged for a closer look

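The groups of 4 arrays examined numbered 144 (receptor probes, differences within receptor pairs, named list genes and the genes most like a receptor). Of these groups, 11 held 1 array whose gap to its nearest neighbour took more of the group's range than Dixon's test allows at the 95% level. Chance would give about 7.2 if the groups were independent. They are not, since genes named for following a receptor were picked for sharing its pattern. The 11 can therefore not be weighed against 7.2. PMSG-labelled array 3 stood apart in 6 of the 11: low for the brightest probe of Nr3c1 (-1.67 against -0.97 to -0.92, gap share 0.927), for Gstm6 (gap share 0.899) and Phf1 (0.863), which were named for following Nr3c1, for the brightest probe of Pgrmc1 (1.47 against 1.88 to 1.96, 0.84), and for Wbp4 (0.872) and Copb2 (0.866), named for following Pgrmc1. PMSG-labelled array 4 was low for the coding-end probe of Nr3c2 (-7.84 against -5.91 to -5.69, gap share 0.896) and for the theca product Insl3 (2.49 against 3.50 to 3.59, 0.921). Control-labelled array 3 was low for the Pgrmc1 probe at base 677 (-0.11 against 0.21 to 0.26, gap share 0.865) and high for Paqr5 (-2.79 against -3.59 to -3.50, 0.887). Control-labelled array 2 was high for Hsd17b7 (2.76 against 2.13 to 2.19, gap share 0.909).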

How the results depend on the processing

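Of the 7 receptor genes, 4 (median centring) to 7 (without the PMSG-labelled array 4) passed under the 20 alternatives run, and Esr1, Esr2, Nr3c2 and Pgrmc1 passed under each of them. Receptor probes called ranged from 6 to 11, and list genes from 37 to 58. The leave-one-out fits called 5 to 7 receptor genes, 7 to 11 receptor probes, 37 to 58 list genes and 6552 to 11382 of all probes; Nr3c2 stayed between 1.97 and 2.16. No called value changed sign. Normexp kept the main calls of the receptor probes but shrank dim ones, Esr1 to 0.70 and Esr2 at base 1814 to 0.67. Median centring moved the median difference of all probes from 0.11 to -0.05 and the share of calls that were higher from 51.4% to 34.5%; with quantile normalization these were 0.03 and 46.2%. Replicate numbers did not pair the arrays (correlations of same-numbered deviations 0.0444, 0.0361, 0.183 and -0.0192). With the replicate block, 5 receptor genes were called, and the pair changes of 1.22 (Nr3c2 minus Nr3c1) and 0.99 (Pgrmc2 minus Pgrmc1) had an adjusted p of 0.188; sign changes within 4 numbered pairs cannot reach 0.05. Dim probes limit precision: the Nr3c2 coding-end probe was well above background on 4 of 8 arrays.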
